A study of Mus musculus with 6 samples.

Results

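The expression of 9 genes was followed in splenic follicular (Fo) B cells, the recirculating mature B cells of the spleen: the CC chemokine genes Ccl3, Ccl4, Ccl5, Ccl6, Ccl9 and Ccl22, the CXC chemokine genes Cxcl10 and Cxcl16, and Wfdc17, a neighbour of Ccl4 that encodes a small whey acidic protein domain protein and is no chemokine. They are 9 of the 24346 gene symbols in the tables and were chosen by symbol, with their values by genotype in these libraries known. RNA sequencing compared 3 libraries of B6 control mice, called WT here, with 3 libraries of mice that carry the G9gl heavy and light chains (HL) on both alleles, a knock-in of the germline precursor of an anti-DNA antibody from a person with lupus. All mice were 8 weeks old, and the cells were sorted as B220+ CD93- cells with low CD21 and high CD23. No further allele or treatment is labelled, and the labels do not give an animal for each library. The p-values therefore cover the spread among these libraries only, part of which may be technical. The question named in the labels is how anergic G9gl B cells, which persist but respond weakly to antigen, differ from WT cells in gene expression.

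Chemokines are small secreted proteins that draw cells bearing their receptors. CCL3, which acts through CCR1 among other receptors, and CCL4 are made by B cells after antigen receptor stimulation and attract T cells and myeloid cells. CCL5 acts through CCR1 and CCR3 among others, CCL22 through CCR4, CXCL10, which interferons induce, through CXCR3, and CXCL16, a membrane-anchored chemokine that sheddases release, through CXCR6. CCL6 and CCL9 are rodent chemokines known mainly from myeloid cells, and Wfdc17 is best known from activated macrophages and microglia.

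Of the 9 genes, 7 lie on chromosome 11 (mm10, GENCODE vM21). Ccl5 (83525778 to 83530518), Ccl9 (83572919 to 83578636), Ccl6 (83587882 to 83593087), Ccl3 (83647844 to 83649355), Ccl4 (83662584 to 83664683) and Wfdc17 (83703991 to 83706268) form a run of 180.5 kb, while Cxcl16 (70453983 to 70459984) lies elsewhere on the same chromosome. Cxcl10 is on chromosome 5 (92346638 to 92348889) and Ccl22 on chromosome 8 (94745590 to 94751699). Ccl3 and Ccl4 point away from each other, with 13.2 kb between their starts. RefSeq also gives Ccl4 a longer extent, from 83648624 to 83664683, which reaches into Ccl3 on the other strand. The libraries keep no strand, so fragments of such a transcript could not be told from those of Ccl3. The same holds for Ccl6, Cxcl10 and Cxcl16, which overlap E230016K23Rik, Art3 and Zmynd15 on the other strand. These were listed at no more than 0.244, 0.403 and 0.0749 FPKM (the level unit explained below). In WT, E230016K23Rik and Art3 reached 0.244 and 0.147 FPKM, not small beside the WT means of Ccl6 (0.313) and Cxcl10 (0.178). The Art3 value of 0.403 FPKM was in G9gl replicate 1, where Cxcl10 was at 1.26 FPKM.

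RefSeq (GRCm38.p6) promoter sequences were found for 6 of the 9 genes. Those of Ccl3, Wfdc17, Cxcl10 and Ccl22 are shown because these 4 genes were higher in G9gl without overlap and their windows hold matches to motifs of factors that antigen receptor or interferon signals activate. Each is the 250 bases before the RefSeq start, 5′ to 3′ on the gene's strand, at chr11:83649379-83649628 (minus strand), chr11:83703806-83704055 (plus strand), chr5:92348890-92349139 (minus strand) and chr8:94745434-94745683 (plus strand). Capitals mark matches on either strand to the NFAT core GGAAAA, the kappa B motif (GGGA and CC with any 4 bases between), the AP-1 motif TGANTCA, the paired interferon regulatory factor (IRF) motif (GAAA and GAAA with any 2 bases between) or the T-box motif AGGTGTGA.
Ccl3: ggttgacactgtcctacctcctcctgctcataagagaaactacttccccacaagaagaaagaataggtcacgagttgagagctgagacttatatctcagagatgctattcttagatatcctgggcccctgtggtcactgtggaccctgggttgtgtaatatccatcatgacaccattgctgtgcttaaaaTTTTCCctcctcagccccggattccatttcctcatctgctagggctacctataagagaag
Wfdc17: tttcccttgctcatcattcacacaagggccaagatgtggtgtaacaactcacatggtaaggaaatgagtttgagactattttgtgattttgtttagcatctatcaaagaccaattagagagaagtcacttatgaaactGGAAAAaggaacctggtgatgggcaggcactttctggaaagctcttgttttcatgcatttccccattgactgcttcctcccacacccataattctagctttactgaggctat
Cxcl10: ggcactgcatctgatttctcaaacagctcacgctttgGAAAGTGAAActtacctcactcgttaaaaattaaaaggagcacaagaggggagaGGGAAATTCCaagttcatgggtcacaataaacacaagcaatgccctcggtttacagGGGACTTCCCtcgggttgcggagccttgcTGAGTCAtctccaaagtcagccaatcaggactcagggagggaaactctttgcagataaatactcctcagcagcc
Ccl22: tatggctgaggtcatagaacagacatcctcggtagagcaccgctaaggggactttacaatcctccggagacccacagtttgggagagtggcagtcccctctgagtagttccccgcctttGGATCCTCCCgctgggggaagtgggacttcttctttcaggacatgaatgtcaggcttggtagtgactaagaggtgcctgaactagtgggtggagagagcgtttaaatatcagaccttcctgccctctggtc

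The Cxcl10 window held the IRF pair at 213 to 204 bases before the start, a kappa B match at 159 to 150, a further one at 103 to 94 that reads as a match on both strands, and an AP-1 match at 74 to 68. The Ccl3 window held a single NFAT core at 60 to 55 bases before the start and that of Wfdc17 a single NFAT core at 112 to 107. Among 32851 windows of the same length, 20.4% held the NFAT core, 17.6% the kappa B motif, 6.7% the AP-1 motif, 3.0% the IRF pair and 1.1% the T-box motif. The Ccl22 window held a kappa B match on the other strand at 131 to 122 bases before the start. Of the members not shown, Ccl9 had an AP-1 match, Ccl6 had none, and no T-box match was found in the 6 windows. The motifs were picked after the sequences had been seen, and a match is a description of letters, not of binding.

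In WT cells Wfdc17 was far above the chemokine genes, and in G9gl cells the mean of each of the 9 genes was higher than in WT. Levels are in FPKM, the deposited measure of fragments scaled by transcript length and by library size, which corrects for length, so genes can be set side by side. The WT means ran from Wfdc17 (64.0) through Ccl4 (2.38), Ccl5 (1.82), Ccl3 (0.707), Ccl6 (0.313), Cxcl16 (0.251), Cxcl10 (0.178) and Ccl9 (0.0223) to Ccl22, listed at 0. The WT ranges of Ccl4 and Ccl5 overlapped, as did those of Ccl3 and Ccl6, and those of Ccl6, Cxcl16 and Cxcl10. Those of Cxcl10, Ccl9 and Ccl22 overlapped too, as each had a WT library listed at 0. In G9gl the order was Wfdc17 (208.5), Ccl4 (24.2), Ccl3 (6.12), Ccl5 (4.94), Cxcl10 (0.971), Ccl6 (0.638), Cxcl16 (0.344), Ccl22 (0.131) and Ccl9 (0.0772). The G9gl ranges overlapped between Ccl3 and Ccl5, Cxcl10 and Ccl6, Ccl6 and Cxcl16, and Ccl22 and Ccl9, so the order within these pairs is not beyond the spread between libraries. Ccl4 moved from the 62.7th to the 84.3rd percentile of all gene levels and Wfdc17 from the 93.7th to the 98.2nd.

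**Figure D1:**
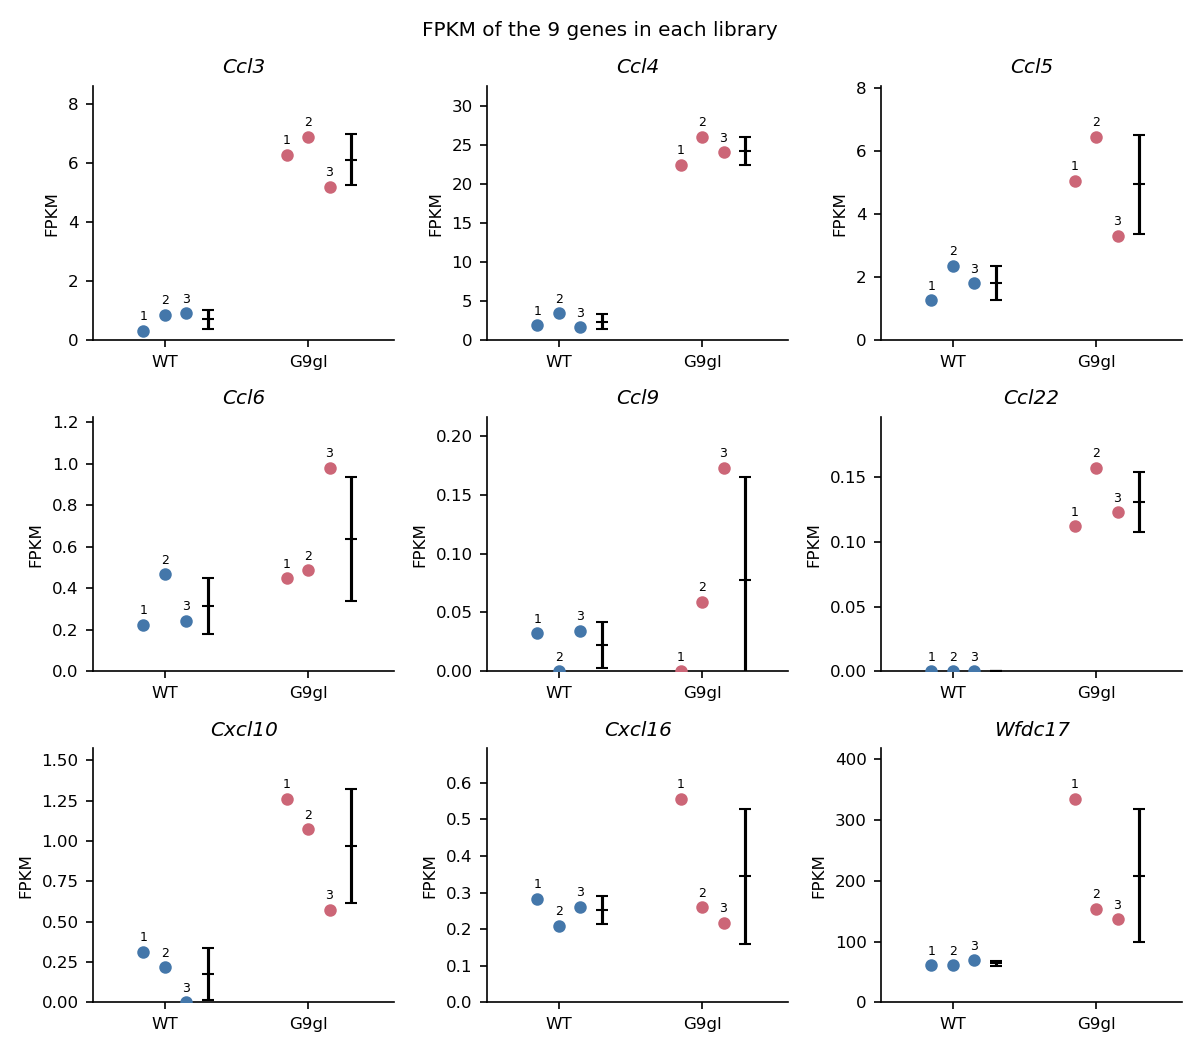
FPKM of the 9 genes (vertical axes from 0, a scale for each gene) in the 3 WT and 3 G9gl libraries, with points numbered by replicate and bars for the mean and SD. The groups do not overlap for Ccl3, Ccl4, Ccl5, Ccl22, Cxcl10 and Wfdc17, and Wfdc17 is highest in G9gl replicate 1 (334.6 FPKM).

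The fit over all genes needed 3 libraries or more at 1 FPKM or above, which 4 of the 9 genes reached (Ccl3, Ccl4, Ccl5 and Wfdc17). Ccl3 passed through its G9gl libraries alone. These 4 were called higher in G9gl, where 11.8% of the 10122 tested genes were called higher and 23.4% called in either direction (limma, Benjamini-Hochberg adjusted p under 0.05). The split over all genes was 1191 higher and 1174 lower, while TPM, which makes each library sum to the same total, gave 730 higher and 2493 lower. The libraries did not overlap between genotypes for 6 of the 9 genes, against 14.6% of the genes above 0 in any library that were higher without overlap and 40.8% of the tested genes that did not overlap in either direction. Since this contrast was known when the genes were chosen, nothing is read from these counts and the values below are a description.

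Ccl4, which encodes MIP-1 beta, had the largest log2 difference of the 9 genes. It was at 1.97, 3.46 and 1.72 FPKM in WT replicates 1 to 3 and at 22.5, 26.1 and 24.1 FPKM in the G9gl replicates. The lowest G9gl library was 6.50-fold above the highest WT library, and the G9gl libraries lay close together. The mean was 2.38 ± 0.943 FPKM in WT and 24.2 ± 1.79 FPKM in G9gl (errors of means are SD over the 3 libraries here and below), a ratio of 10.2. The log2 difference was 2.93 ± 0.171 (SE), on the log2(FPKM + 1) scale that understates changes at low levels.

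Ccl3, which encodes MIP-1 alpha, followed the same course at a lower level. It was at 0.332, 0.870 and 0.920 FPKM in WT and at 6.27, 6.88 and 5.19 FPKM in G9gl, a ratio of means of 8.65 with no overlap. Its log2 difference was 2.07 ± 0.172 (SE). The steps between low FPKM values allowed fragments to be estimated: Ccl3 rested on about 2, 5 and 5 fragments in WT and 35, 42 and 27 in G9gl, and Ccl4 on about 9, 15 and 7 in WT and 99, 126 and 97 in G9gl. The WT level of Ccl3 is thus known poorly, and its ratio ran from 6.83 without WT replicate 1 to 10.2 without WT replicate 3. Ccl4 exceeded Ccl3 by 3.59, 3.79 and 4.64 times in the G9gl libraries and by 5.94, 3.98 and 1.87 times in the WT libraries.

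Ccl5, which encodes RANTES, differed less. It was at 1.27, 2.36 and 1.81 FPKM in WT and at 5.06, 6.45 and 3.31 FPKM in G9gl, with about 4 to 7 and 9 to 21 fragments. The lowest G9gl library stood 1.40-fold above the highest WT library, on about 9 against 7 fragments, so this gap is known poorly. The mean was 1.82 ± 0.548 FPKM in WT and 4.94 ± 1.57 FPKM in G9gl, a ratio of 2.72, and the log2 difference was 1.06 ± 0.214 (SE).

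Wfdc17 was the most abundant of the 9 genes and uneven among the G9gl libraries. It was at 61.3, 61.3 and 69.4 FPKM in WT and at 334.6, 153.8 and 137.1 FPKM in G9gl. Replicate 1 stood far above the other G9gl libraries, and all 3 were above WT. The mean was 64.0 ± 4.66 FPKM in WT and 208.5 ± 110 FPKM in G9gl, a ratio of 3.26 that was 2.27 without G9gl replicate 1. Its log2 difference was 1.57 ± 0.270 (SE).

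Cxcl10, the interferon-induced CXCR3 ligand gene, and Ccl22, the CCR4 ligand gene, did not overlap between genotypes but stayed too low for the fit. Cxcl10 was at 0.315, 0.219 and 0 FPKM in WT and at 1.26, 1.07 and 0.576 FPKM in G9gl, or about 3, 2 and 0 against 12, 11 and 5 fragments. Ccl22 was listed at 0 in the 3 WT libraries and at 0.112, 0.157 and 0.123 FPKM in G9gl, which is about 3 to 4 fragments a library, so no ratio is given.

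The myeloid chemokine genes and Cxcl16 overlapped between genotypes. Ccl6 was at 0.226, 0.468 and 0.245 FPKM in WT and at 0.447, 0.486 and 0.979 FPKM in G9gl, about 3 to 6 and 6 to 12 fragments. Ccl9 rested on 1, 0 and 1 fragments in WT and 0, 2 and 5 in G9gl, at 0.0323, 0 and 0.0346 against 0, 0.0590 and 0.173 FPKM. Its difference was not detectable at this depth. Cxcl16 was at 0.283, 0.209 and 0.261 FPKM in WT and at 0.556, 0.260 and 0.217 FPKM in G9gl. Its higher G9gl mean came from replicate 1, without which the ratio of means was 0.949.

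Ccl3, Ccl4 and Ccl5 made up most of the chemokine RNA in G9gl. Over 38 chemokine ligand genes, the 8 here and 30 others, FPKM summed to 10.6, 12.4 and 10.2 in the WT libraries and to 43.8, 46.5 and 44.6 in the G9gl libraries. Ccl4 was 18.6%, 28.0% and 16.8% of that sum in WT and 51.4%, 56.0% and 54.0% in G9gl. The 3 genes together were 33.8%, 54.1% and 43.5% in WT and 77.2%, 84.7% and 73.1% in G9gl. These shares follow from the levels above and add no separate evidence.

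The other 30 ligand genes were mostly low or at 0. Of them 11 were listed at 0 in all 6 libraries, among them Ccl17, the neighbour of Ccl22 that also acts through CCR4. The 2 that passed the filter were Ccl25, an intestinal and thymic chemokine gene, at 1.54 ± 0.542 FPKM in WT and 1.89 ± 1.05 in G9gl (limma adjusted p 0.73), and Ccl27a, a skin chemokine gene with near copies, at 3.24 ± 1.15 and 3.84 ± 1.32 FPKM (adjusted p 0.58). Neither was called, and 0 of the 2 had an unadjusted p under 0.05. Cxcl9 and Cxcl11, the other CXCR3 ligand genes and neighbours of Cxcl10, reached at most 0.216 and 0.132 FPKM in any library.

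A list of 13 genes held receptors for these ligands, atypical chemokine receptors and processing enzymes. Of these 8 were tested, 2 rose and 0 fell in G9gl (limma, with 2 higher and 2 lower at an unadjusted p under 0.05). Over all tested genes 11.8% were called higher and 23.4% in either direction. The list median log2 fold change was 0.11, against -0.002 over all tested genes, and these counts rest on few genes. Cxcr3, the receptor gene for CXCL10, rose from 0.517 ± 0.187 to 4.48 ± 0.962 FPKM, 3.59-fold on the log2(FPKM + 1) scale (adjusted p 9.4e-05). Folds here and below are on this scale, which understates changes at low levels, unless named a ratio of means. Ccrl2, which encodes an atypical receptor that binds the attractant chemerin, rose from 2.90 ± 0.555 to 6.53 ± 0.312 FPKM, 1.94-fold (adjusted p 7.8e-04). Ccr1, a receptor gene for CCL3 and CCL5, was at 2.55 ± 0.324 and 3.11 ± 1.38 FPKM (adjusted p 0.70), and was called higher without G9gl replicate 1. Ccr4, the receptor gene for CCL22, stayed below the filter, at most at 0.353 FPKM. Adam10, the sheddase gene for CXCL16, was at 38.9 ± 1.72 and 33.3 ± 2.73 FPKM (adjusted p 0.064), and Dpp4, whose product trims CXCL10, at 31.0 ± 1.92 and 27.1 ± 1.05 FPKM (adjusted p 0.092). With TPM values Adam10 and Dpp4 were called lower. Cxcr3 passed the filter through its G9gl libraries alone and was not tested without any 1 of them, and 1 gene of the list was then higher without G9gl replicate 2 or 3.

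Regulators that antigen receptor signals induce or use moved both ways. Of 30 listed, 27 were tested, 9 rose, 5 fell and 13 did not pass, with a median log2 fold change of 0.17 against -0.002 over all tested genes. Egr2, an early growth response factor gene, rose from 7.10 ± 0.542 to 31.6 ± 0.738 FPKM, 4.03-fold (adjusted p 8.7e-07). Batf, a basic leucine zipper factor gene, rose from 24.8 ± 3.76 to 57.7 ± 0.187 FPKM, 2.29-fold (adjusted p 4.6e-05), and Nfkbiz, a nuclear regulator of NF-kB, from 13.2 ± 0.702 to 25.1 ± 3.07 FPKM (adjusted p 2.5e-04). Nfatc3, a gene of the NFAT family, fell from 67.1 ± 3.27 to 43.4 ± 1.49 FPKM, 1.53-fold (adjusted p 1.5e-04). Bcl6, a repressor gene of the germinal centre programme, was among those that fell, from 63.2 ± 2.92 to 48.2 ± 1.77 FPKM (adjusted p 0.0022). The subunit genes Rel, Rela and Nfkb1 did not pass, with adjusted p of 0.29, 0.31 and 0.38. Bcl6, Rel, Rela and Nfkb1 were named after their values were seen.

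Interferon response genes were mostly higher in G9gl, with 24 of 29 tested called higher, 0 lower (limma; 27 and 0 at an unadjusted p under 0.05) and a median log2 fold change of 0.78. Zbp1, a nucleic acid sensor gene, rose from 35.7 ± 0.432 to 84.3 ± 6.98 FPKM (adjusted p 5.7e-06), Gbp7, a guanylate-binding protein gene, from 3.80 ± 0.476 to 11.6 ± 0.553 FPKM (adjusted p 2.9e-05) and Ifi47, an interferon-induced GTPase gene, from 82.2 ± 4.72 to 163.9 ± 14.6 FPKM (adjusted p 3.2e-05). The G9gl libraries were not alike over the list. In replicate 1 Irf7 (40.8 FPKM), Ifit2 (4.15) and Oasl1 (12.8) lay below the highest WT library (42.1, 4.86 and 14.9). Irf1, in contrast, was highest in replicate 1 (235.4 FPKM). Without that replicate 28 of 29 were called higher. Irf7, Ifit2, Oasl1 and Irf1 were named after their values were seen. Of 9 tested genes tied to the transcription factor T-bet, 6 rose and 0 fell (7 and 1 at an unadjusted p under 0.05), with a median of 0.59. Tbx21, the T-bet gene, rose from 2.46 ± 1.06 to 17.5 ± 3.23 FPKM (adjusted p 9.4e-05). This was 5.51-fold on the log2(FPKM + 1) scale and 7.14-fold as a ratio of means. Fcer1g, an Fc receptor chain gene, rose from 3.21 ± 1.10 to 30.8 ± 7.33 FPKM (adjusted p 2.1e-05) and Zeb2, a zinc finger repressor gene, from 5.07 ± 0.578 to 13.2 ± 1.86 FPKM (adjusted p 1.4e-04). Cxcr3 is on this list too, and 3 of the list were higher without G9gl replicate 3. No test links these genes to the chemokine genes.

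**Figure D2:**
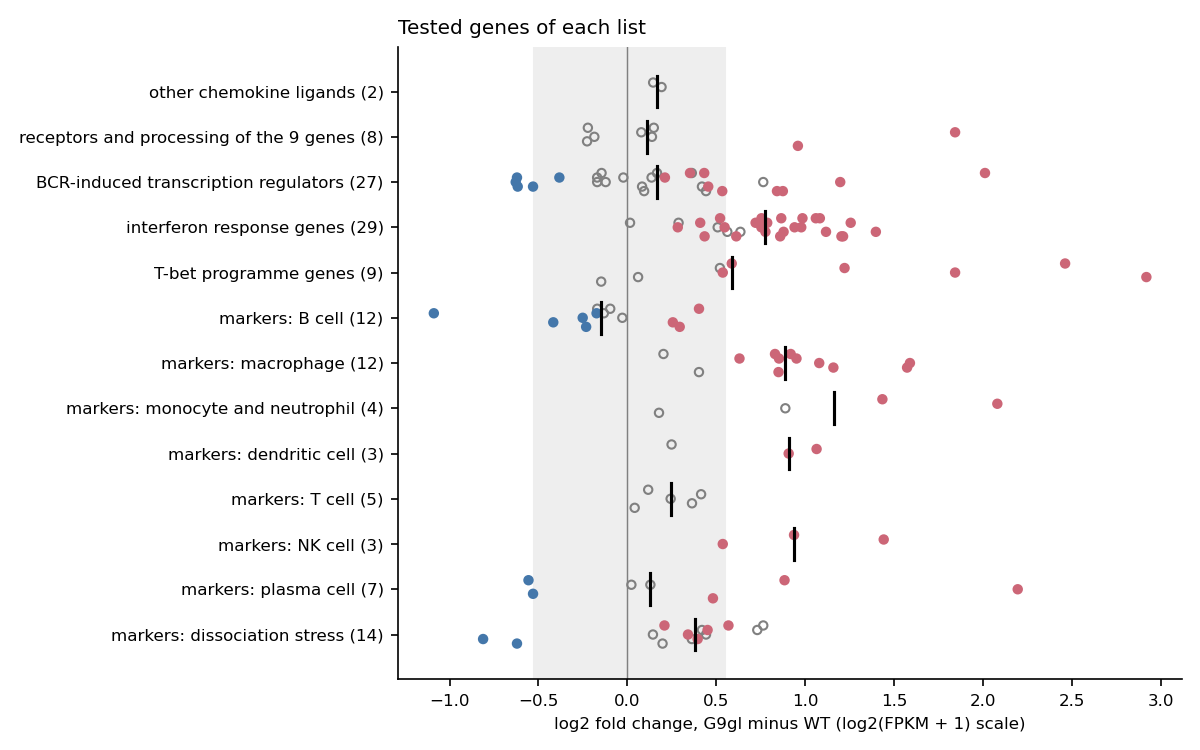
Log2 fold changes (horizontal axis, G9gl minus WT, log2(FPKM + 1) scale) of the tested genes on each list, with the number tested in brackets. Filled points were called by limma (red higher, blue lower), open points were not, black lines are list medians, and the grey band runs from the 5th to the 95th percentile of all tested genes (-0.53 to 0.55). The interferon list has its median at 0.78, with no gene called lower.

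Most tested genes around the chromosome 11 members were not called. Within 1 Mb of the run from Ccl5 to Ccl4, 26 other genes were tested, of which 2 were called higher and 3 lower, a share of 19.2% beside the 23.4% of all tested genes, with a median log2 fold change of 0.05. Of those called higher, Wfdc21, a further gene of the whey acidic protein domain family, rose from 3.95 ± 0.425 to 5.76 ± 0.287 FPKM (adjusted p 0.015). Wfdc18, between Wfdc17 and Wfdc21, was below the filter, at 0.304, 0.323 and 0.693 FPKM in WT and 1.93, 0.880 and 2.11 FPKM in G9gl. Those called lower were Rffl, a ubiquitin ligase gene, from 13.1 ± 1.27 to 9.90 ± 1.17 FPKM (adjusted p 0.037), Synrg, a trafficking gene, from 11.2 ± 0.236 to 8.99 ± 0.700 FPKM (adjusted p 0.044), and the predicted gene Gm11423 (adjusted p 0.027). These counts rest on few genes. Synrg, Rffl, Gm11423 and Wfdc21 lost their calls in 8, 6, 5 and 3 alternatives. Without G9gl replicate 2 none was called higher, and without WT replicate 1 or G9gl replicate 3 only 1. Without WT replicate 2 or G9gl replicate 3 none was called lower, and without WT replicate 3 or G9gl replicate 2 only 1.

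**Figure D3:**
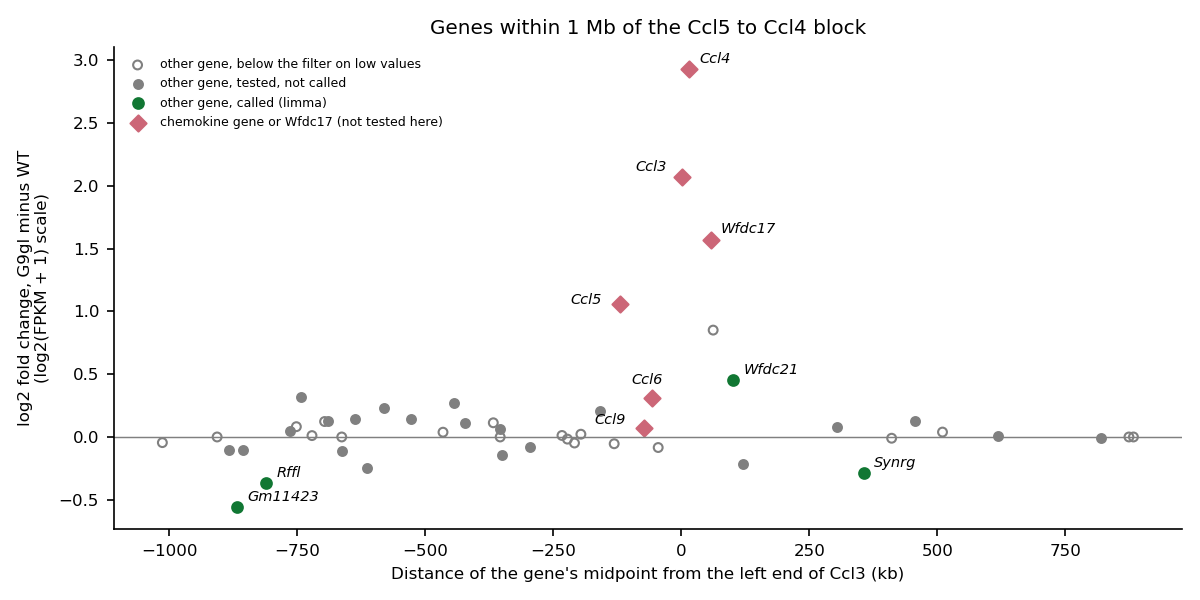
Log2 fold change (vertical axis, G9gl minus WT, log2(FPKM + 1) scale) against the distance of each gene's midpoint from the left end of Ccl3 in kb. Diamonds are the chemokine genes and Wfdc17, green points other genes called by limma, grey points tested genes that were not called and open points genes below the filter; Ccl4 (2.93), Ccl3 (2.07) and Wfdc17 (1.57) stand above the other genes drawn, and 1 called gene that is not reported here is not drawn.

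The windows around the other loci were narrower and held few genes. Within 200 kb of Ccl22, 0 of 7 tested genes were called by limma, and 0 had an unadjusted p under 0.05. Near Cxcl10 only Naaa, a lipid amidase gene, was called, lower (adjusted p 0.041), among 5 tested, and it lost its call in 9 alternatives, the omission of each library among them. Near Cxcl16, Med11, a Mediator subunit gene, was called higher (adjusted p 0.015) and Rnf167, a ubiquitin ligase gene, lower (adjusted p 0.011), among 9 tested, a share of 22.2%. Med11 lost its call in 3 alternatives, among them the omission of WT replicate 2 or G9gl replicate 2.

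The tested genes whose profiles lay closest to each member over the 6 libraries were found by the root mean square difference of log2(FPKM + 1) after centring each gene on its own mean. This measure was given as a description, since all such genes share the genotype difference. Among those named next, Lilrb4a, Adamtsl4, Zbtb46 and Parm1 passed the filter through their G9gl libraries alone. Closest to Ccl3 were Egr2 (0.147) and Socs1 (0.166), a feedback inhibitor gene of cytokine signals, and closest to Ccl4 were Rhbdf1 (0.259), an inactive rhomboid protease gene, and Lilrb4a (0.312), an inhibitory receptor gene. Ccl5 had Zbtb46 (0.147), a factor gene known from dendritic cells, and Adamtsl4 (0.173). Wfdc17 had Parm1 (0.147) and the phospholipid scramblase gene Plscr1 (0.167), which shared its high value in G9gl replicate 1. Plscr1 was at 3.11, 3.36 and 3.25 FPKM in WT and at 19.7, 9.12 and 10.8 FPKM in G9gl, and Parm1 at 0.0485, 0 and 0.0523 against 3.48, 1.42 and 1.57 FPKM.

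The label B cell held against defining markers. Cd79a, Cd79b and Cd74 were at 2497 ± 114, 2473 ± 53.6 and 26340 ± 865 FPKM in WT and at 2213 ± 75.7, 2425 ± 32.1 and 32290 ± 832 in G9gl. Of the 12 B cell markers 3 were called higher, among them Cd74 and Blk, a Src-family kinase gene, and 5 lower, among them Cr2, which encodes CD21 and was part of the gate, from 131 ± 7.20 to 61.2 ± 2.42 FPKM (adjusted p 5.2e-06), and Ms4a1, the CD20 gene (adjusted p 7.8e-04). With TPM values 9 were called lower, and only 3 when any library but replicate 1 of either group was left out. Cd74 showed no difference after quantile normalization, which gives the most abundant gene of each library the same value.

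Markers of other cells were low but moved with genotype. Ccl6, Ccl9 and Wfdc17 are known from myeloid cells. In bulk RNA, more cells of a type and more RNA per cell cannot be told apart. Of 20 macrophage markers 12 were tested, 10 rose and 0 fell (limma; 11 and 0 at an unadjusted p under 0.05), and the summed FPKM of all 20 was 24.3 to 32.0 in WT and 63.2 to 70.4 in G9gl. C1qc, a complement gene of tissue macrophages, rose from 1.75 ± 0.577 to 7.07 ± 0.662 FPKM (adjusted p 1.7e-04), C1qb from 2.08 ± 0.793 to 8.11 ± 0.829 (adjusted p 2.5e-04), Vcam1 from 1.17 ± 0.149 to 3.21 ± 0.317 (adjusted p 8.8e-04) and Lyz2, the lysozyme gene, from 6.57 ± 1.39 to 13.2 ± 1.20 (adjusted p 0.0014). Adgre1, which encodes F4/80, was at 2.42 ± 0.116 and 2.95 ± 0.396 FPKM (adjusted p 0.28), no listed marker was at 0 in all libraries, Axl was tested only through its G9gl libraries, and Marco, Fcgr1 and Timd4 reached at most 0.103, 0.286 and 0.136 FPKM.

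Set beside these sums, Wfdc17 was 1.91, 2.30 and 2.86 times the summed macrophage markers in WT and 4.75, 2.44 and 2.16 times in G9gl. In G9gl replicates 2 and 3 it lay within the WT range of that ratio, and in replicate 1 above it. Ccl4 was 0.0615, 0.130 and 0.0709 times the sum in WT and 0.319, 0.413 and 0.379 times in G9gl, so its ratio to the sum did not overlap between genotypes. Relative to the WT mean, Ccl3 was at 8.87, 9.73 and 7.34 in the G9gl libraries and Ccl5 at 2.79, 3.55 and 1.83. The macrophage sum was at 2.55, 2.28 and 2.30, and the sum of the natural killer cell markers described below at 2.82, 1.95 and 2.63. The values of Ccl5 overlapped those of both sums. The part of these cells in the differences was not tested.

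**Figure D4:**
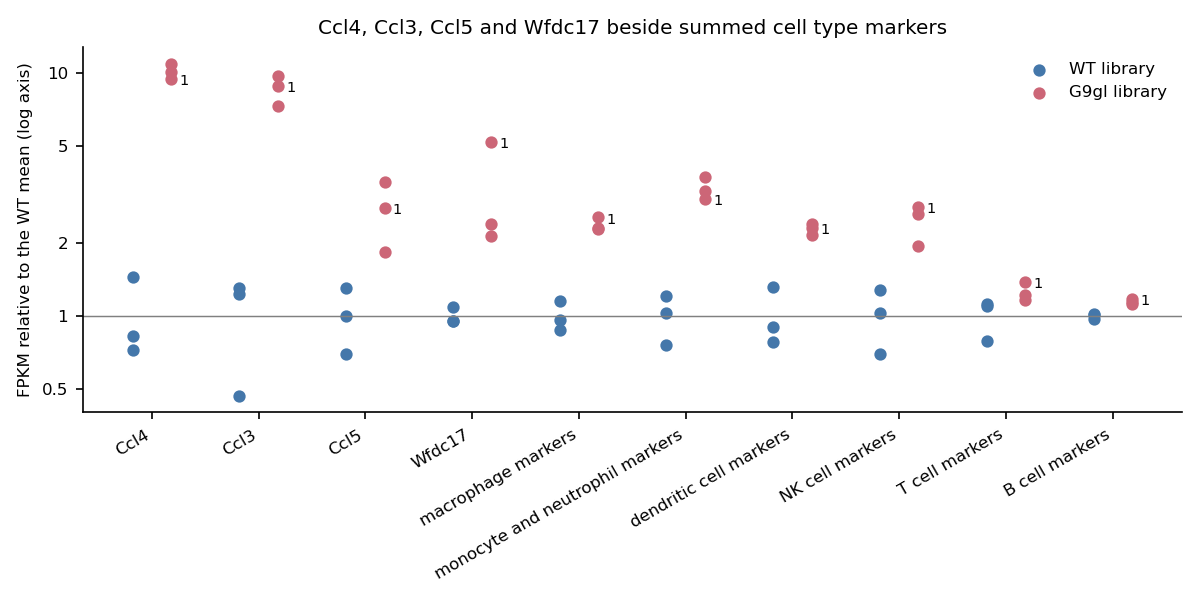
FPKM relative to the WT mean (log axis) for Ccl4, Ccl3, Ccl5 and Wfdc17 and for the summed FPKM of 6 marker lists, with blue points for WT and red points for G9gl libraries and G9gl replicate 1 marked. Ccl4 lies at 9.44 to 10.9 in G9gl, Ccl5 at 1.83 to 3.55, the macrophage sum at 2.28 to 2.55, and Wfdc17 at 5.23 in replicate 1 and at 2.40 and 2.14 in the others. The B cell sum, at 1.12 to 1.18 in G9gl, is mostly Cd74. Of the 12 B cell markers 3 were called higher and 5 lower, with a median log2 fold change of -0.15.

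The remaining lists were smaller. Of 13 measured monocyte and neutrophil markers 4 were tested and 2 rose, Ly6c2 from 12.5 ± 1.34 to 38.6 ± 17.7 FPKM (adjusted p 0.0075) and S100a8 from 2.44 ± 1.43 to 13.3 ± 5.06 (adjusted p 0.0011), with sums of 14.6 to 23.3 and 58.5 to 71.9 FPKM. Ly6c2 alone gave 13.33, 13.29 and 10.99 FPKM of these sums in WT replicates 1 to 3 and 19.25, 54.05 and 42.49 in the G9gl replicates. Ly6c2 was not called with the robust fit (adjusted p 0.074), and 4 of the list were higher without a filter. Of 12 dendritic cell markers 3 were tested and 2 rose, Zbtb46 from 0.409 ± 0.233 to 1.94 ± 0.461 FPKM (adjusted p 0.0029) and Cd209a from 1.53 ± 0.881 to 3.60 ± 0.712 (adjusted p 0.020), while the sums were 2.82 to 4.77 and 7.77 to 8.66 FPKM and Clec9a stayed at or below 0.0302 FPKM. Cd209a lost its call in 4 alternatives, and without G9gl replicate 3 it was not called. Zbtb46 passed the filter through its G9gl libraries alone and was not tested without any 1 of them. Natural killer (NK) cells and T cells also make Ccl3, Ccl4 and Ccl5. Of 10 NK cell markers the 3 tested rose, Prf1, Klrd1 and Nkg7, with sums of 3.36 to 6.17 and 9.42 to 13.6 FPKM. Below the filter, the receptor gene Ncr1 was at most at 0.305 FPKM in WT and 0.160 in G9gl, and the receptor gene Klrb1c at most at 0.242 and 0.521. The call for Nkg7 (adjusted p 0.049) was lost in 11 alternative settings, and 1 of the 3 was called without any 1 of the G9gl replicates. Klrd1 passed the filter through its G9gl libraries alone. Of 13 T cell markers 5 were tested and 0 were called by limma (1 higher and 0 lower at an unadjusted p under 0.05), with sums of 7.23 to 10.3 and 10.7 to 12.7 FPKM.

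Plasma cell and dissociation stress genes were examined because antibody-secreting cells could enter the sort and handling induces early genes. Of 7 tested plasma cell markers 3 rose, Jchain from 0.580 ± 0.195 to 6.23 ± 0.776 FPKM (adjusted p 1.4e-05), Sdc1 and Derl3 (1 of these without G9gl replicate 2), and 2 fell, Irf4 and Fkbp11 (1 without WT replicate 2), with sums of 337.6 to 358.3 FPKM in WT and 353.6 to 377 in G9gl. Jchain, at most at 0.795 FPKM in WT, was tested only because its G9gl libraries passed the filter. Of 14 tested stress genes 5 rose, among them the chaperone genes Hsp90aa1 (adjusted p 0.0015), Dnajb1 (adjusted p 0.0022) and Hspa8 (adjusted p 0.0051), and Jund and Btg2 fell (1 of these when any library but WT replicate 3 or G9gl replicate 1 was left out). The stress sums were 3310 to 3636 FPKM in WT and 3942 to 4683 in G9gl, highest in replicate 1. With TPM values 3 were higher, and Hspa8 was not called after quantile normalization (log2 fold change 0.11, adjusted p 0.35). The part of stress in the chemokine values was not tested.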

How the data were processed

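Each library has 1 deposited table of FPKM values by gene symbol. The submitters' processing notes name Cufflinks 2.2.1, TopHat2 2.0.13, SAMtools 0.1.19, Bowtie2 2.2.3 and the build mm10. Per the labels' protocols, RNA was extracted with Trizol, and cDNA and libraries were made with SMART-Seq HT and Nextera kits. No source used here gives the gene annotation or says whether libraries were scaled to each other. FPKM totals were 603054 to 611557 in WT and 657759 to 671533 in G9gl, with 13467 to 14908 and 14823 to 16187 genes above 0. No pair of libraries shared more than 2 nonzero values. The immunoglobulin genes that would check the genotype were not analysed here.

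Depth was estimated from genes with 1 annotated transcript, whose low FPKM values fall on steps of whole fragments after an allowance of 260 to 280 bases of transcript length. This gave 10600000 to 12350000 fragments a library, and 77.3% to 80.0% of the low values used lay within 0.1 of a whole number. Fragment numbers for Ccl22 and Cxcl16 are rough, as their transcript lengths may differ from the authors'. Fragment numbers cover counting error only.

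Genes that reached 1 FPKM in 3 or more libraries were fitted with limma 3.58.1 in R 4.3.3 (lmFit, eBayes with trend) on log2(FPKM + 1), on genotype alone, and p-values were adjusted over 10122 genes by the Benjamini-Hochberg method. The script was tested on simulated data. The 9 genes, the lists and the tests were chosen with earlier results of these data known. Named genes are the 9, every called gene of a list with 5 or fewer, otherwise up to 4 by smallest p, abundant markers, the 2 closest profiles for each tested member and up to 5 called genes in each window, beside genes named for their role. Alternatives were other pseudocounts, filters and scalings, a robust fit, the omission of each library and a replicate block. A few genes on the lists and in the chromosome 11 window are counted but not reported here by name.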

Additional observations from a re-analysis of the deposited data

How the results depend on the processing

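The ratio of low genes depends on the pseudocount: the log2 fold change of Ccl3 was 3.04 and 2.49 with a pseudocount of 0.1 and 0.5, against 2.07 with 1, and that of Ccl4 was 3.35 with 0.1, against 2.93. Leaving out each library gave 1.90 to 2.17 for Ccl3, 2.79 to 3.15 for Ccl4, 0.88 to 1.27 for Ccl5 and 1.17 to 1.81 for Wfdc17. With values rescaled to TPM the median of all tested genes moved from -0.002 to -0.127, and 730 genes were called higher and 2493 lower, against 1191 and 1174. Without single libraries 793 (G9gl replicate 2) to 1076 were called higher and 689 (WT replicate 2) to 1175 lower. With TPM, 2 receptor and processing genes, 1 T-bet gene and 5 genes near the chromosome 11 run were called lower. With a filter of at least 5 FPKM, 1 receptor and processing gene, 3 T-bet genes, 5 macrophage markers (of 5 tested) and 1 gene of the chromosome 11 window were called higher, since fewer genes were tested. In that window 1 gene was higher and 0 lower without a filter, 1 was lower after quantile normalization and 1 with the replicate block. Leaving out libraries gave 0 to 3 higher and 0 to 2 lower there, 1 to 2 receptor and processing genes higher (1 without G9gl replicate 2 or 3), and 3 to 6 T-bet genes higher (3 without G9gl replicate 3). The log2 fold change of Cxcl16 was 0.095, turned to -0.015 without G9gl replicate 1 and reached 0.16 without G9gl replicate 3. Markers that were not called turned as well: Cd3g (-0.076 without WT replicate 3 and -0.19 without G9gl replicate 2), Mzb1 (-0.11 with TPM, -0.046 after quantile normalization, 0.081 without G9gl replicate 1, and -0.02, -0.0035 and -0.01 without WT replicate 2, G9gl replicate 2 and G9gl replicate 3), Xbp1 (-0.0025 with TPM) and Zfp36 (-0.012 after quantile normalization). The cause was not tested except where stated. No sign of pairing by replicate number was seen: same-numbered deviations correlated at 0.099, -0.069 and 0.021, and not every library correlated best with its own number. With 3 libraries a group, this cannot show that the samples were not paired. With the replicate number as a block, 1044 genes were higher and 988 lower, 8 stress genes were higher against 5, and the log2 fold changes of Ccl3 and Ccl4 were 2.07 and 2.93. Few fragments limit Ccl9, Ccl22, and the WT levels of Cxcl10, Ccl3, Ccl5 and Ccl6.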

Other observations

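Among the 30 chemokine ligand genes outside the 9, 4 were above 0 in G9gl replicate 1 alone. These were Ccl12 at 0.66 FPKM, Cxcl2 at 0.43, Ccl8 at 0.36 and Cxcl11 at 0.13, each listed at 0 in the other 5 libraries and each resting on few fragments. The same library held the highest values of Wfdc17, Cxcl10 and Cxcl16. Of the interferon response genes, Ifit1, Isg15 and Usp18 had their lowest G9gl values there (2.74, 7.45 and 15.48 FPKM), while Irf1 had its highest (235.4). Of the monocyte and neutrophil markers, S100a8 was highest there (19.15 FPKM), while Ly6c2 had its lowest G9gl value (19.25). This library also had the highest Atf3, a stress-induced factor gene, at 4.42 FPKM against 0.22 to 1.44 in the other libraries, and the highest Dusp1, an early phosphatase gene, at 206 FPKM against 54.1 to 120.7. Ccl3, Ccl4 and Ccl5 were not highest in that library. These values were picked after they were seen.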
